A study of Mus musculus with 12 samples.

Results

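Mouse embryonic fibroblasts given the scaffold protein KSR1 (kinase suppressor of Ras 1) together with oncogenic H-RasV12 differed in many transcripts from fibroblasts given H-RasV12 without KSR1: called rises were frequent among respiratory chain, citric acid cycle, glycolytic, hypoxia-response and vacuolar ATPase genes, and called falls among matrix, contractile, mesenchymal and imprinted genes. The comparison sets the 3 arrays of the line carrying KSR1 and H-RasV12 against the 3 arrays of the line carrying H-RasV12 alone, 6 of the 12 arrays of the study. It covers all 12422 probe sets of the array that are not the manufacturer's controls, of which 6891 passed the filter on low signal and were tested.

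The fibroblasts of all 4 lines came from KSR1-/- mice of the DBA background, so the control lines lack the endogenous gene as well, and every line expressed GFP. The lines differed in what was expressed beside GFP: nothing, H-RasV12, KSR1, or KSR1 together with H-RasV12. Here the last of these is called the double line. There was 1 cell line per condition, measured on 3 arrays, and nothing in the labels states that the 3 arrays came from separate cultures, so p-values measure the spread between arrays of 1 line, which may be technical, and a difference between lines cannot be told apart from a difference between the conditions.

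KSR1 binds Raf, MEK and ERK and brings them together, which raises the efficiency with which active Ras signals to ERK; active ERK in turn induces immediate early genes and their feedback inhibitors. H-RasV12 is a constitutively active Ras that transforms fibroblasts when its signal reaches ERK. Mitochondrial genes are known targets of the PGC-1 coactivators and of the estrogen-related receptors they bind, glycolytic genes of hypoxia-inducible factor and Myc, lysosomal genes of the MiT/TFE factors, and contractile genes of serum response factor.

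Signals were MAS5 values, in arbitrary units of brightness, with the same trimmed mean of 500.3 on every array, and the number of arrays limits the precision. Over the tested probe sets, the 6 arrays compared correlated at 0.911 to 0.962 within a line and at 0.807 to 0.871 between the H-RasV12 line and the double line. Replicate 1 of the double line stood apart in its control probes: its 18S signal was 146.4 against 2517 and 2048 on the other double-line arrays, and its 3′ beta-actin signal 8629 against 21090 and 24550. Replicate 1 of the GFP line, which enters the difference of the KSR1 responses, was low as well, with 18S at 344.6 against 1427 and 515.7 and beta-actin at 7981 against 22140 and 21110. Both signals were lowest on replicate 1 in the other lines too. There 18S was 394.7 against 3312 and 1130 with KSR1, and 1114 against 2491 and 1600 with H-RasV12. Of 10 tested fibroblast markers, 6 fell and 0 rose (limma; 0 also at an unadjusted p under 0.05), and the summed signal of the list ran from 51260 to 70620 on the H-RasV12 arrays and from 21050 to 32320 on the double-line arrays. The fibroblast markers Vim and Thy1 were below the filter, with means of 73.6 and 16.4 in the H-RasV12 line and 82.9 and 11.0 in the double line. Of 31 cytosolic ribosomal protein genes on the array only 24 passed it. A signal below the filter therefore does not show that a transcript was absent. Of 14 leukocyte markers on the array, 4 passed the filter and none was called (limma; 0 at an unadjusted p under 0.05), with Ptprc and Lyz2, which define leukocytes and myeloid cells, at means of 11.3 and 5.57 in the H-RasV12 line and 10.3 and 9.31 in the double line. Among 10 epithelial markers Krt19 alone rose, and the defining Epcam was below the filter. Of the endothelial, adipocyte and skeletal muscle lists 2, 1 and 3 markers passed the filter and none was called (limma; 0 at an unadjusted p under 0.05 in each), and of 4 neural markers Map2 fell. In such bulk RNA, fewer cells of a type and less RNA per cell cannot be told apart.

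The added gene was read first. One of its 2 probe sets gave 20.24, 32.19 and 14.23 on the H-RasV12 arrays and 301.2, 261.9 and 140.8 on the double-line arrays. All double-line arrays were higher, the log2 change was 2.47 ± 0.62 (SE; limma adjusted p = 0.0135), and the call was lost when replicate 2 of the double line was left out or replicate 1 of every group was left out (adjusted p up to 0.0596). The other probe set for Ksr1 gave 187.9, 231.1 and 180.2 against 293.5, 323.7 and 265.2, which did not overlap, but the change of 0.51 ± 0.24 did not pass (limma adjusted p = 0.173). Which parts of the transcript the probe sets cover, and whether either reads the part removed in the null allele, is not given in the sources used here.

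Between the double line and the H-RasV12 line, 1022 of the 6891 tested probe sets (14.8%) differed at a limma adjusted p under 0.05. Of these 490 (7.11%) were higher and 532 (7.72%) lower, and 280 and 361 of them moved by 2-fold or more. A change of 4-fold or more was measured for 85 of the rises and 135 of the falls, and one of 16-fold or more for 11 and 17. With replicate 1 of every group left out the count was 1013, and without replicate 1 of the double line alone 1129. The values of the 3 double-line arrays and the 3 H-RasV12 arrays did not overlap for 1002 of the 1022, and 29.3% of all tested probe sets were without overlap. Counted by 1 probe set per gene, the one with the highest mean signal, 841 of 5286 genes were called (15.9%), 403 higher (7.62%) and 438 lower (8.29%); these are the backgrounds for the gene lists that follow. Changes are differences of mean log2(signal + 23), each with its standard error, and understate the change of dim probe sets. The median change over all tested probe sets was −0.05, and centring every array on its median moved that median to 0.05 and the split to 525 higher and 399 lower. Unless a sentence says otherwise, each gene described as having risen or fallen kept its call in every alternative analysis that tested it.

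**Figure D1:**
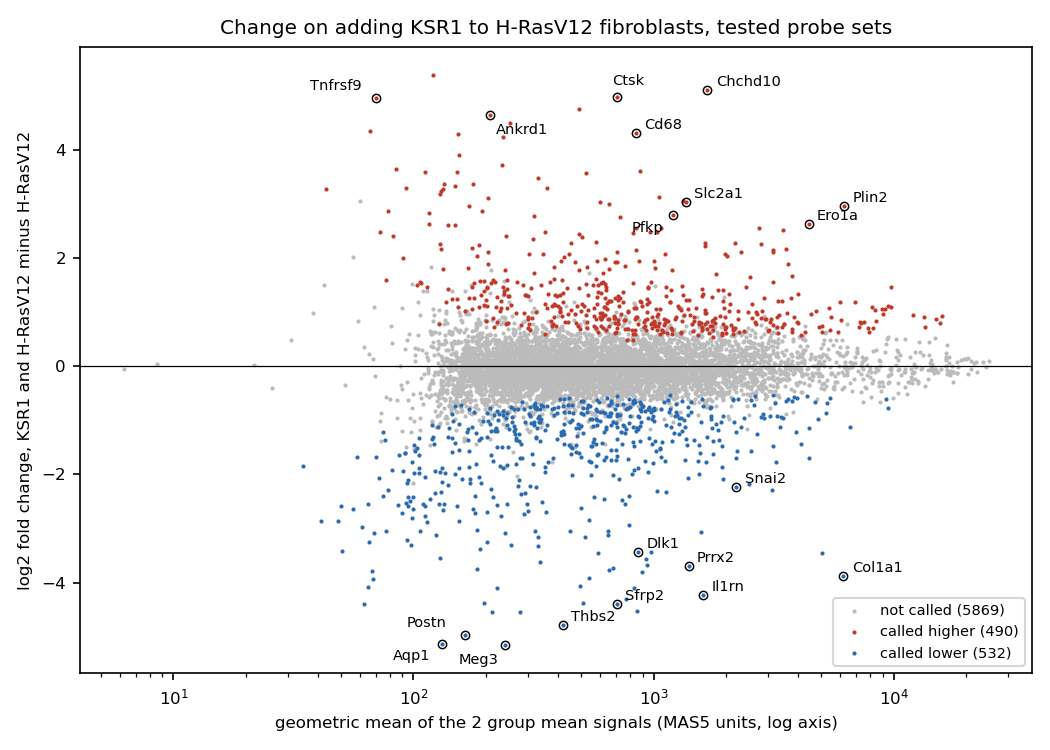
Change in signal between the double line and the H-RasV12 line for each tested probe set. The horizontal axis is the geometric mean of both groups' mean signals on a log scale, the vertical axis the log2 change; the 490 probe sets called higher and 532 called lower are coloured and 5869 were not called. Large changes in both directions occur across most of the signal range.

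Among the largest rises without overlap was that of Chchd10, a protein of the mitochondrial intermembrane space. It read 190.3, 305.8 and 336.9 on the H-RasV12 arrays and 9179, 9735 and 11380 on the double-line arrays. The mean was 36.4-fold higher in the double line, far outside the spread within either line (log2 change 5.10 ± 0.35, limma adjusted p = 4.13e-07). Ctsk, the lysosomal collagenase cathepsin K, read 127.9, 127 and 91.12 against 3828, 4753 and 4303, with a mean 37.2-fold higher (4.97 ± 0.50, adjusted p = 1.34e-05). Tnfrsf9, the costimulatory receptor 4-1BB, was near 0 on the H-RasV12 arrays, at 3.381, 9.84 and 3.648, and at 891.4, 1070 and 661.6 on the double-line arrays. Its change was 4.95 ± 0.43 (adjusted p = 3.82e-06), a value that depends on the constant added before the logarithm because the H-RasV12 signals lie below it. Ampd3, an AMP deaminase, rose from 95.62, 70.19 and 85.41 to 2330, 3165 and 3120, with no array of one line near the other (4.75 ± 0.31, adjusted p = 3.85e-07). Ankrd1, an ankyrin repeat protein induced by YAP and by serum, was below 40 in the H-RasV12 line and varied most among the double-line arrays, at 1472, 429.2 and 2799 (4.64 ± 0.47, adjusted p = 1.26e-05).

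At the other end stood Meg3, a long noncoding RNA of an imprinted cluster. It read 3581, 1309 and 1229 on the H-RasV12 arrays and 27.27, 31.9 and 25.57 on the double-line arrays. The mean was 72.2-fold lower in the double line (−5.15 ± 0.36, limma adjusted p = 4.64e-07), and a second probe set for Meg3 gave −4.10. Aqp1, a water channel, fell from 742.3, 1932 and 1312 to 13.17, 16.24 and 9.871 (−5.13 ± 0.33, adjusted p = 3.54e-07), and all its double-line signals lay below the added constant. Postn, the matricellular protein periostin, fell from 1214, 1153 and 1470 to 2.664, 36.68 and 23.48 (−4.97 ± 0.37, adjusted p = 8.42e-07). Ptn, the heparin-binding growth factor pleiotrophin, read 724.5, 631.8 and 439 against 13.85, 4.827 and 0.8972 (−4.39 ± 0.40). Plac8, a small cysteine-rich protein, gave 5087, 2755 and 3226 on the H-RasV12 arrays and 195, 166.7 and 121 on the double-line arrays (−4.31 ± 0.70). The double-line signals of Meg3, Aqp1, Postn and Ptn were thus at or near the constant of 23.

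**Figure D2:**
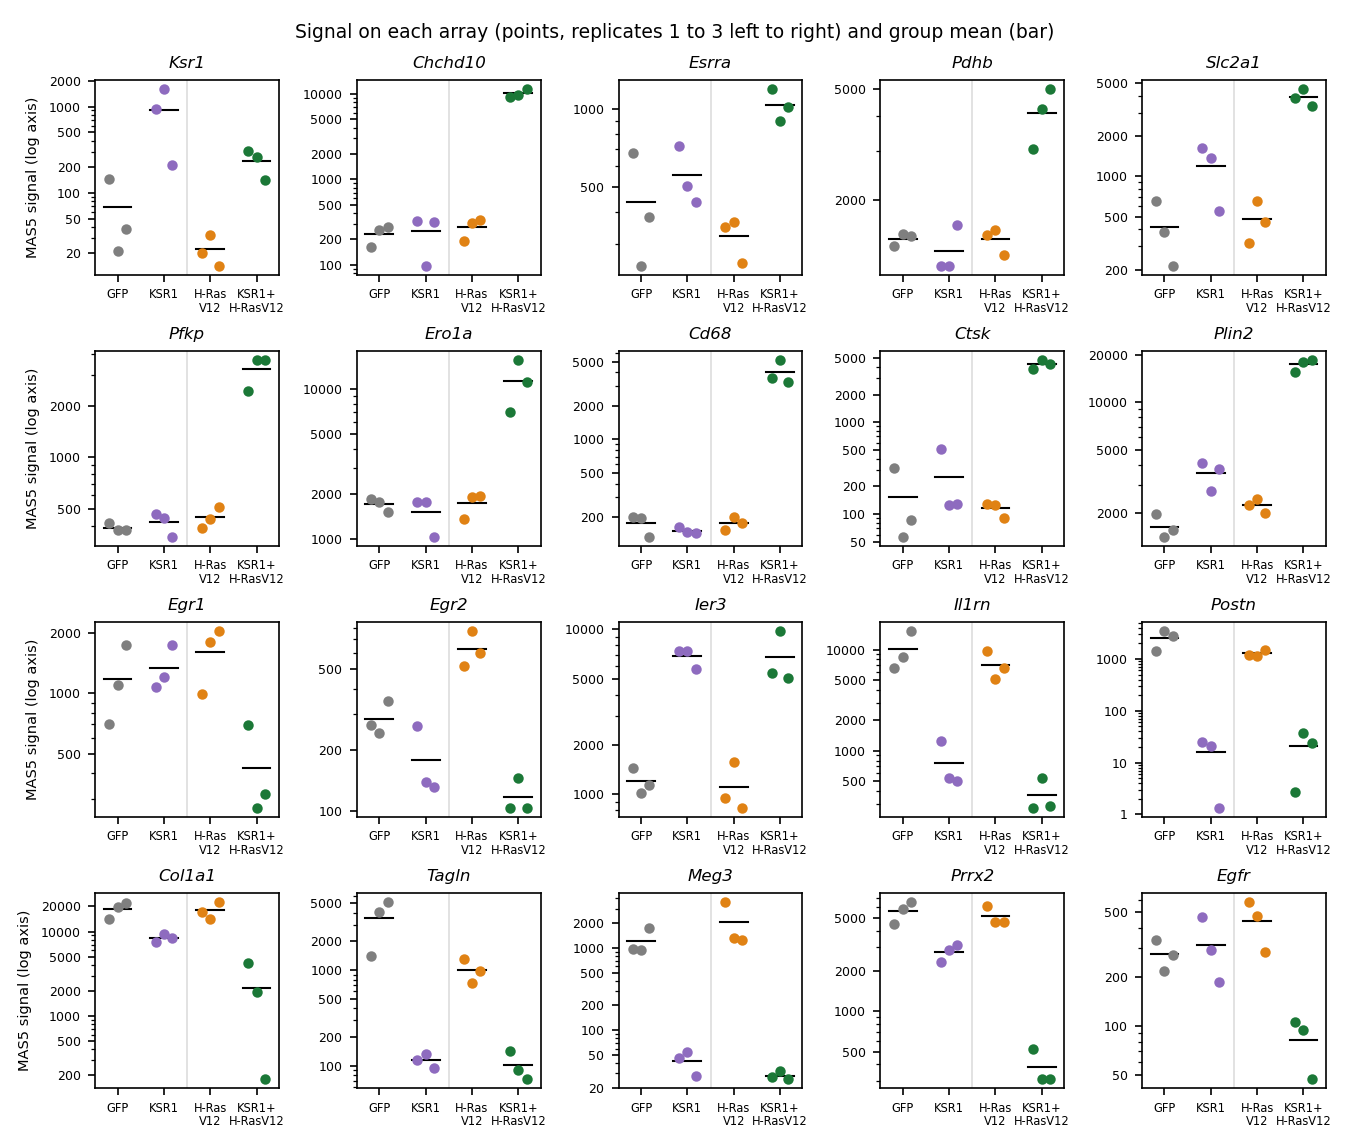
Signal of 20 genes on all 12 arrays, on log axes. Each point is 1 array, replicates 1 to 3 from left to right within GFP, KSR1, H-RasV12 and both together, and the bar is the group mean. Chchd10, Cd68 and Ctsk are high on the 3 arrays with both proteins and on no other, whereas Meg3 and Postn are low with KSR1 whether or not H-RasV12 is present.

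In the lists of respiratory chain, citric acid cycle and fatty acid oxidation genes, called members were higher and none was called lower. Of 57 tested subunits and assembly genes of the respiratory chain and ATP synthase, 24 were called higher and 0 lower (limma; 38 and 0 at an unadjusted p under 0.05), against backgrounds of 7.62% and 8.29%, with a median change of 0.64. Cycs, cytochrome c, which carries electrons between complexes III and IV, read 289.3, 522.1 and 496.9 on the H-RasV12 arrays and 1593, 1439 and 2121 on the double-line arrays. The groups were well apart (1.95 ± 0.29, limma adjusted p = 0.000296). Sdhd, a membrane anchor of succinate dehydrogenase, rose from 2587, 2663 and 2261 to 5180, 6768 and 7108 (1.33 ± 0.18, adjusted p = 0.00013). Atp5o, a stalk subunit of ATP synthase, rose from 2671, 2166 and 2436 to 5923, 6203 and 5326 (1.26 ± 0.18, adjusted p = 0.000192). Uqcrh of complex III rose by 1.21 ± 0.22 and Cox7b of complex IV by 1.02 ± 0.23, so every complex had a called member. Ndufs1, the largest subunit of complex I, was very even within groups, at 1452, 1453 and 1419 against 2701, 3064 and 3112 (1.02 ± 0.15, adjusted p = 0.000354). Cox6c of complex IV overlapped between the lines and was not called (0.29 ± 0.23). The count fell from 24 to 15 when replicate 2 of the double line was left out.

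The list of pyruvate dehydrogenase, its inhibitory kinases and citric acid cycle enzymes held rises more often still, 14 of 20 and 0 lower (limma, with 16 and 0 at an unadjusted p under 0.05). The median change was 0.76, and leaving out any 1 array did not move the count by more than 1.5 times. Pdk4, a kinase that switches pyruvate dehydrogenase off and is a known target of the estrogen-related receptors, read 287.6, 176.2 and 202.9 on the H-RasV12 arrays and 1706, 2019 and 2008 on the double-line arrays. It had the largest rise of the list (3.00 ± 0.36, limma adjusted p = 4.82e-05). A second inhibitory kinase, Pdk1, which is also counted in the hypoxia list below, rose from 364.7, 400.6 and 293.7 to 683.2, 1370 and 887.8 (1.37 ± 0.28). Subunits of the enzyme they inhibit rose as well: Pdhb went from 1497, 1564 and 1268 to 3050, 4223 and 5004 (1.47 ± 0.20, adjusted p = 0.000177), and Dlat from 364.6, 419.1 and 479.5 to 815.3, 1050 and 899.4 (1.09 ± 0.19). Within the cycle, Idh3a, the catalytic subunit of isocitrate dehydrogenase, rose by 1.25 ± 0.24. Mdh2, mitochondrial malate dehydrogenase, went from 5461, 5624 and 5494 to 10220, 13510 and 12180, an increase well beyond the spread of either line (1.10 ± 0.18, adjusted p = 0.000542).

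Fatty acid oxidation enzymes gave 7 calls higher and 0 lower among 20 (limma; 11 and 0 at an unadjusted p under 0.05), median 0.54. Hadhb, the thiolase subunit of the trifunctional protein, rose from 1297, 1153 and 1120 to 2786, 3561 and 3287 (1.41 ± 0.18, limma adjusted p = 9.41e-05). Etfdh, which passes electrons from the acyl-CoA dehydrogenases to ubiquinone, rose by 1.14 ± 0.25, and Acaa2, a thiolase, from 4979, 3851 and 4620 to 7795, 8611 and 7934 (0.86 ± 0.19). The count dropped to 3 without replicate 2 of either line, and to 4 without replicate 1 of the H-RasV12 line or replicate 3 of the double line.

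Regulators of mitochondrial gene expression were part of this change. Esrra, the nuclear receptor ERRα, read 351, 366.7 and 254.7 on the H-RasV12 arrays and 1194, 893.5 and 1012 on the double-line arrays. The lines did not overlap (1.61 ± 0.30, limma adjusted p = 0.00173), and a second Esrra probe set read 85.69, 75.38 and 60.57 against 371.9, 385.6 and 487.5 (2.18, adjusted p = 0.00021). Ppargc1a, which encodes the coactivator PGC-1α, was below the filter, with signals of 27.28, 12.94 and 5.901 in the H-RasV12 line and 55.32, 155.9 and 115.3 in the double line. Its arrays did not overlap, and in the analysis without the filter the change was 1.74 ± 0.31 (limma adjusted p = 0.00342). Vdac2, a pore of the outer mitochondrial membrane, rose from 1085, 1119 and 1126 to 1966, 3464 and 2893 (1.27 ± 0.26). In the list of PGC-1, ERR, import and other biogenesis genes that also holds Chchd10, 8 of 31 rose and 0 fell (limma; 14 and 1 at an unadjusted p under 0.05). That count was 3 without replicate 1 of the H-RasV12 line, 5 without its replicate 2, and 4 without replicate 2 or 3 of the double line. Mitochondrial ribosomal proteins rose in 6 of 54 cases and fell in 0 (limma; 18 and 0 unadjusted), a share close to the background of 7.62%, and in 3 cases without replicate 1 of the H-RasV12 line. Mrps36, placed in that list by its name, was among the called members, at 754.7, 665.8 and 808.3 against 1632, 1323 and 1452 (0.96 ± 0.17, limma adjusted p = 0.00133).

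Glucose uptake and glycolysis rose alongside. Of 21 tested genes 12 were called higher and 0 lower (limma; 14 and 0 at an unadjusted p under 0.05), median 0.88, and no single array moved the count by more than 1.5 times. The promoters of 3 of them are shown because they hold the motif GACGTG, which contains the ACGTG core of hypoxia response elements. Each sequence is the 250 bases before the start of transcription of a RefSeq transcript in build GRCm38.p6, read 5′ to 3′ on the gene's strand, and capitals mark the motif or its reverse complement CACGTC. The Hk2 promoter lies at chr6:82774455-82774704 on the minus strand, with the motif 226 and 52 bases before the start; that of Pgk1 at chrX:106186850-106187099 on the plus strand, with the motif 151 and 131 bases before it; and that of Slc2a1 at chr4:119108495-119108744 on the plus strand, with the motif 37 bases before it.
Hk2: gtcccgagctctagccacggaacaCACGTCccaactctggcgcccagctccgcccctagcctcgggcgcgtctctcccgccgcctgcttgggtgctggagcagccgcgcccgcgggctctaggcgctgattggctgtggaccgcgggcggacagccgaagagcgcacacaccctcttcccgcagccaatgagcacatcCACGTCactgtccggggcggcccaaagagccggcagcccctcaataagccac
Pgk1: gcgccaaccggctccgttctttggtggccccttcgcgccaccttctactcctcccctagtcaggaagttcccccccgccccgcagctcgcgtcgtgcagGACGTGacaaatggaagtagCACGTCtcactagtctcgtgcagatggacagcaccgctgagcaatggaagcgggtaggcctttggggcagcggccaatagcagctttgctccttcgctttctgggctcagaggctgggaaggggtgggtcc
Slc2a1: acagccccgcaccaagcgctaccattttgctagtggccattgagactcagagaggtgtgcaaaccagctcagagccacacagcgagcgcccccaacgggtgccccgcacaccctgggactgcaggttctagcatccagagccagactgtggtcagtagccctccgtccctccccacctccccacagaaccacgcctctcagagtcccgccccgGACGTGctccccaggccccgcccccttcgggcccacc
On either strand of windows of 300 bases, the 250 shown and the 50 that follow, GACGTG was found in 6 of 14 promoters of the called glycolytic genes (42.9%), in 10.4% of 425 promoters of all genes called higher, in 6.70% of 448 promoters of genes called lower and in 10.5% of 5560 promoters of tested genes. These matches are descriptions of letters and do not show binding.

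Slc2a1, the glucose transporter GLUT1, read 318.5, 649.2 and 458.8 on the H-RasV12 arrays and 3892, 4527 and 3346 on the double-line arrays. The rise of 3.03 ± 0.41 (limma adjusted p = 0.000132) was the largest of the list. Hk2, the inducible hexokinase of the first step, rose from 201.1, 319.6 and 288.7 to 1501, 2298 and 2076 (2.76 ± 0.22, adjusted p = 1.27e-06). Pfkp, the platelet isoform of phosphofructokinase, rose from 388.7, 436.4 and 516.6 to 2428, 3667 and 3687 (2.79 ± 0.20, adjusted p = 6e-07), and its second probe set gave 2.55. Eno2, the neuronal isoform of enolase, rose from 358.8, 358.3 and 295 to 2474, 1971 and 1530 (2.46 ± 0.31). For all 4, the gap between the lines was larger than the range within either line. Smaller rises were measured for enzymes of the common pathway: Pgk1, phosphoglycerate kinase, went from 5436, 7223 and 5993 to 10210, 15080 and 13520 (1.05 ± 0.19, adjusted p = 0.00149), and Ldha, lactate dehydrogenase A, from 9587, 12090 and 13980 to 17540, 21270 and 22750 (0.79 ± 0.18, adjusted p = 0.00759). Pkm, pyruvate kinase, did not overlap between the lines but was not called (0.52 ± 0.18, adjusted p = 0.0789).

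Other genes of the hypoxia response rose in 11 of 22 cases and fell in 0 (limma; 14 and 0 at an unadjusted p under 0.05), with a median of 1.05, the highest of the 36 pathway lists. Bnip3, a mitophagy receptor, read 224.1, 562.3 and 281.8 on the H-RasV12 arrays and 2627, 3995 and 2779 on the double-line arrays (3.13 ± 0.46, limma adjusted p = 0.000308). Ero1a, an oxidase for disulfide bond formation in the endoplasmic reticulum, rose from 1373, 1917 and 1949 to 7075, 15600 and 11070 (2.62 ± 0.28, adjusted p = 1.9e-05). For both, every double-line array was above every H-RasV12 array, with a wide range among the double-line arrays of Ero1a. Egln1, the oxygen sensor that marks hypoxia-inducible factor for destruction, rose from 536.4, 748.2 and 626.1 to 1951, 2543 and 2159 (1.77 ± 0.26), and Hif1a, which encodes that factor, from 6593, 6298 and 6052 to 11330, 10480 and 11930 (0.83 ± 0.18, adjusted p = 0.00601). Ndrg1 rose by 2.15 ± 0.31. Bhlhe40, a transcriptional repressor, rose from 758.3, 568.6 and 297.6 to 1750, 3224 and 1891 (2.07 ± 0.31). Adm, the vasodilator peptide adrenomedullin and a known hypoxia target, rose from 230.6, 85.65 and 104.2 to 1261, 3312 and 1337 (3.57 ± 0.49, adjusted p = 0.000161).

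Called members of the 3 lysosomal lists were all higher. Acid hydrolases and cathepsins gave 7 higher and 0 lower of 26 (limma; 9 and 1 at an unadjusted p under 0.05; median 0.23), lysosomal membrane and autophagy genes 10 and 0 of 33 (13 and 2 unadjusted; median 0.26), and subunits of the proton-pumping vacuolar ATPase 8 and 0 of 16 (10 and 0 unadjusted; median 0.66). The second count was not moved by more than 1.5 times by any 1 array. The first fell to 4 without replicate 2 or replicate 3 of the H-RasV12 line, and the ATPase count to 3 without replicate 2 of either line, to 4 without replicate 3 of the H-RasV12 line and to 5 without replicate 1 of either line. Among the hydrolases besides Ctsk, Lgmn, the protease legumain, read 263.1, 181.9 and 170.7 against 1157, 1080 and 633.8 (2.08 ± 0.29, limma adjusted p = 0.000192). Lipa, the acid lipase that frees cholesterol from its esters, rose from 183.2, 116 and 57.42 to 489.6, 324 and 295.1 (1.54 ± 0.35). Ctsb, cathepsin B, went from 6912, 5214 and 5536 to 12600, 12100 and 11110 (1.03 ± 0.17, adjusted p = 0.000785).

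Cd68, a heavily glycosylated protein of the late endosome and lysosome that is used as a macrophage marker, read 153.8, 201.4 and 176.3 on the H-RasV12 arrays and 3559, 5184 and 3293 on the double-line arrays. The mean was 22.6-fold higher (4.31 ± 0.22, limma adjusted p = 5.94e-08), the smallest p of the comparison among named genes. Among the leukocyte markers, Ptprc and Lyz2 stayed near 0 as given above. Cd14 and Laptm5 passed the filter, with means of 1200 and 279 in the H-RasV12 line and 1440 and 265 in the double line. Neither was called, although the arrays of Cd14 did not overlap (0.26 ± 0.21). Promoters of 2 genes from the lysosomal lists are printed as examples of the motifs searched. The Ctsa window, chr2:164833523-164833772 on the plus strand, holds TCACGTGA, the CLEAR box core bound by MiT/TFE factors, 13 bases before the start; the Cd68 window, chr11:69666171-69666420 on the minus strand, holds TGACTCA, the AP-1 element, or its reverse complement TGAGTCA 149 and 24 bases before the start. Build, length and strand are as for the glycolytic promoters, and capitals mark these motifs.
Ctsa: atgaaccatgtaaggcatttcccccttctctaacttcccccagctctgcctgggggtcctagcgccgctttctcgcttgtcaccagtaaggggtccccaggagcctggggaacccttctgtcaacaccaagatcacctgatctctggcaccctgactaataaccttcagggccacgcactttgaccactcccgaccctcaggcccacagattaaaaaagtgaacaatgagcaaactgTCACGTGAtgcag
Cd68: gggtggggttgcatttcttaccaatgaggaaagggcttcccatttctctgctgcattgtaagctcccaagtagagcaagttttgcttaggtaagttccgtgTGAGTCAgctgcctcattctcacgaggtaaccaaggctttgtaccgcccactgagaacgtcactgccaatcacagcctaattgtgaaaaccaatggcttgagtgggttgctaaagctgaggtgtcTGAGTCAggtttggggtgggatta
TCACGTGA is its own reverse complement and shares only the letters ACGTG with GACGTG. It was found in 2 of 8 promoters of called hydrolases, 0 of 11 of called lysosomal membrane and autophagy genes and 1 of 4 of called vacuolar ATPase genes. The shares were 1.18% of promoters of all genes called higher, 2.23% of those called lower and 2.07% of those tested. TGACTCA was found in 7.29% of promoters of genes called higher, 5.36% of those called lower and 4.12% of those tested. The estrogen-related receptor element TCAAGGTCA was rare in these windows, at 0.235% of promoters of genes called higher and 0.252% of those tested. Ctsa itself, a carboxypeptidase, read 1752, 1111 and 931.2 against 2042, 2164 and 2112 (0.78 ± 0.22, adjusted p = 0.0284), and lost its call in several alternatives, with an adjusted p up to 0.135.

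Regulators and transporters of the lysosome were among the larger rises. Mitf, a MiT/TFE transcription factor, read 61.18, 73.82 and 13.4 on the H-RasV12 arrays and 416.9, 2262 and 641.9 on the double-line arrays. The double-line arrays spread over a wide range but none overlapped (3.71 ± 0.56, limma adjusted p = 0.000377). Rragd, the Rag GTPase that recruits mTORC1 to lysosomes and a known MiT/TFE target, rose from 42.41, 38.55 and 19.53 to 440.6, 578.2 and 489.8 (3.23 ± 0.37, adjusted p = 3.4e-05). Melanocyte and osteoclast genes, other settings of Mitf, were otherwise low: of 7 on the array 2 passed the filter, only Ctsk was called, and Tyr, Tyrp1 and Acp5 had means of 49.6, 23.5 and 48 in the double line. Retreg1, a receptor for autophagy of the endoplasmic reticulum, rose from 249.5, 242.6 and 225 to 2509, 3962 and 3182 (3.61 ± 0.28, adjusted p = 1.05e-06). The sterol exporters Abca1 and Abcg1 rose by 2.28 ± 0.49 and 3.04 ± 0.45. Atp6v1b2 and Atp6v1c1, subunits of the cytosolic part of the vacuolar ATPase, rose from 2062, 1768 and 1641 to 4074, 6269 and 6044 (1.55 ± 0.23) and from 1282, 1314 and 1269 to 2992, 3516 and 3424 (1.34 ± 0.15). Lamp1, a lysosomal membrane glycoprotein, was not called, at 10510, 8245 and 10200 against 9312, 7581 and 6784 (−0.29 ± 0.25).

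Genes of lipid storage and uptake rose in 6 of 13 cases and fell in 2 (limma; 6 and 2 at an unadjusted p under 0.05). Plin2, the coat protein of lipid droplets, read 2244, 2446 and 1985 on the H-RasV12 arrays and 15580, 18020 and 18480 on the double-line arrays. There was little spread in either group (2.95 ± 0.19, limma adjusted p = 3.54e-07). Lpl, lipoprotein lipase, rose from 26.92, 10.29 and 58.57 to 212.9, 773.9 and 1201 (3.58 ± 0.54), and Pnpla2, the triglyceride lipase of droplets, from 450.5, 571.9 and 398.5 to 1667, 1572 and 1054 (1.54 ± 0.21). Transcription factors of adipocyte differentiation changed in both directions. Cebpd and Klf5 were called higher, at 1.26 and 1.22, each with a call lost in at least 1 alternative. Ebf1 fell from 203.9, 206.9 and 234.6 to 4.324, 52.19 and 21.66 (−2.40 ± 0.39) and Cebpa by 0.87, a call lost without replicate 2 of the H-RasV12 line (adjusted p = 0.052). Pparg, Fabp4 and Adipoq, which define fat cells, were below the filter and not counted. Pparg read 172.7, 128.7 and 194.2 on the H-RasV12 arrays and 60.28, 84.47 and 58.77 on the double-line arrays, without overlap. In the analysis without the filter its change was −1.05 ± 0.28 (limma adjusted p = 0.0413). Fabp4 and Adipoq overlapped between the lines. The count of falls was 1 without replicate 2 of the H-RasV12 line. Acly, which makes cytosolic acetyl-CoA for lipid synthesis, fell from 4601, 2979 and 5050 to 1751, 1577 and 1832 (−1.25 ± 0.20, adjusted p = 0.000519), while the list of cholesterol and fatty acid synthesis stayed near background, with 1 of 24 higher and 2 lower, or 6 lower without replicate 1 of the double line and 1 without most other single arrays.

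**Figure D3:**
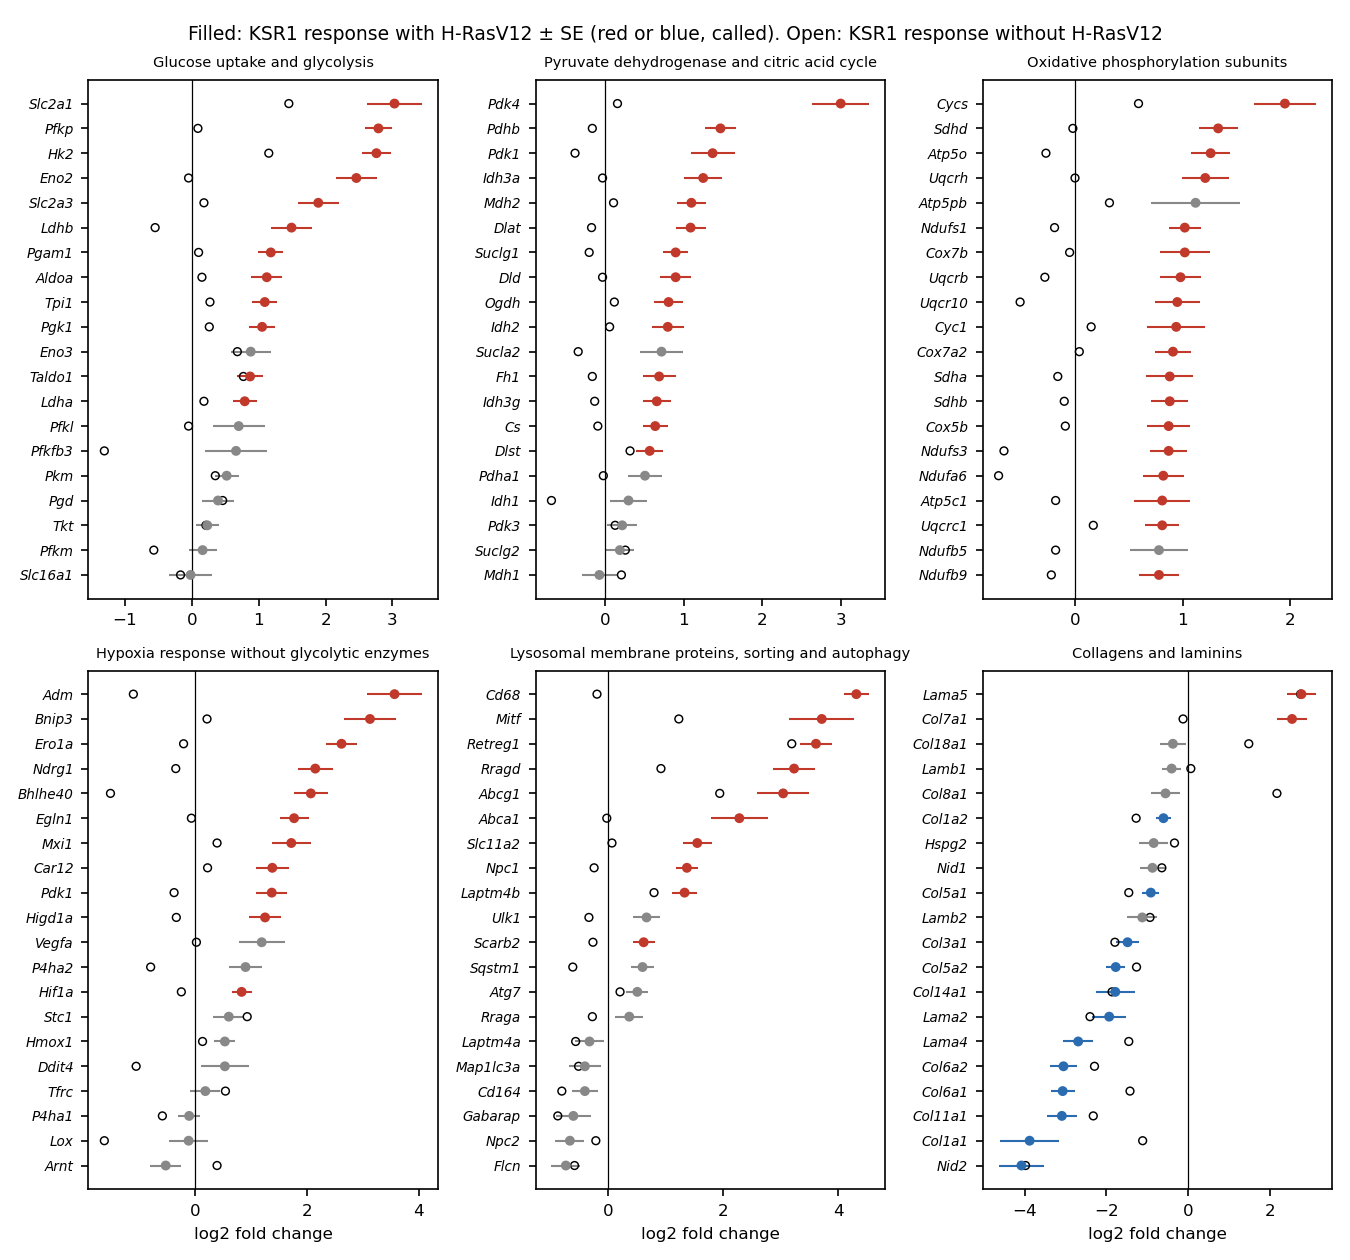
Changes of the members of 6 gene lists, up to 20 members each with the largest changes. Filled points with bars are the log2 change and its standard error from adding KSR1 to the H-RasV12 line, and open points the change from adding KSR1 without H-RasV12. Members were chosen by the size of their change, so the points do not stand for whole lists. Mitochondrial and glycolytic members shown lie to the right in the first comparison. In the second, 3 genes of the glycolytic list were called higher and 6 of the respiratory chain list lower.

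The ERK pathway and its transcriptional targets did not move in 1 direction. Of 15 tested components of the cascade, 2 rose, among them Ksr1, and 2 fell, and these counts went to 0 or 1 in several leave-one-out analyses, including those without replicate 1 of the H-RasV12 line and without replicate 2 of the double line. Of 30 ERK targets and feedback regulators 3 rose and 5 fell (limma; 4 and 7 at an unadjusted p under 0.05; median −0.15), against backgrounds of 7.62% higher and 8.29% lower. The 5 became 2 without replicate 2 or 3 of the H-RasV12 line or with arrays centred on the median, 3 without replicate 2 or 3 of the double line, and 9 without replicate 1 of the double line. The early growth response factors fell: Egr2 read 515.2, 769.9 and 601.7 on the H-RasV12 arrays and 103.3, 145.1 and 103.4 on the double-line arrays (−2.21 ± 0.27, limma adjusted p = 6.59e-05). Egr1 fell from 991.5, 1806 and 2035 to 695.2, 269.8 and 316.3 (−1.91 ± 0.38, adjusted p = 0.00278), with replicate 1 of the double line the highest of its group. Klf4, a zinc finger factor induced by serum, fell from 2878, 4281 and 4738 to 1327, 2537 and 2362 (−0.95 ± 0.28, adjusted p = 0.0347), a call lost in 6 alternatives.

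Other ERK targets rose. Ier3, an early response gene that inhibits cell death, read 954.5, 1562 and 828.3 against 5456, 9723 and 5075 and was clearly higher on every double-line array (2.56 ± 0.27, limma adjusted p = 1.91e-05). Fosl1, the AP-1 subunit Fra-1, rose from 369, 1104 and 740.1 to 2291, 1536 and 1361 (1.30 ± 0.38, adjusted p = 0.0311), a call lost in 7 alternatives, with an adjusted p up to 0.233. Atf3, a stress-induced factor, rose from 259.8, 312.9 and 297.7 to 501.9, 899.7 and 1424 (1.51 ± 0.30), but its other probe set did not pass (0.54, adjusted p = 0.227). Dusp6, the ERK phosphatase, overlapped between the lines: 487.4, 773.9 and 384.1 against 577.4, 43.62 and 62.51, replicate 1 of the double line being as high as the H-RasV12 arrays. Its call (−1.87 ± 0.59, adjusted p = 0.0465) was lost in 16 of the alternatives. Jund, an AP-1 subunit, was not called (0.29 ± 0.28).

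Secreted signalling proteins changed in both directions, 4 higher and 6 lower of 23 (limma; 5 and 6 at an unadjusted p under 0.05). Il1rn, the interleukin-1 receptor antagonist, read 9769, 5098 and 6530 on the H-RasV12 arrays and 271.9, 533.4 and 281.3 on the double-line arrays (−4.23 ± 0.39, limma adjusted p = 5.84e-06). The chemokine Cxcl12 fell from 2978, 1456 and 2513 to 304.2, 238.2 and 266.7 (−2.94 ± 0.31), and Ccl9 fell by 2.63 ± 0.40. Ccl2, which attracts monocytes, rose instead, from 1683, 1641 and 2086 to 7949, 3672 and 10360 (1.89 ± 0.36, adjusted p = 0.00202). Chemokines therefore did not share a direction, and their groups did not overlap either way.

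Extracellular matrix lists held many falls. Of 29 tested collagen, laminin and nidogen genes 12 fell and 2 rose (limma; 15 and 2 at an unadjusted p under 0.05), median −0.60, and of 39 matricellular, proteoglycan and elastic fibre genes 18 fell and 1 rose (22 and 3 unadjusted), median −0.86, against a background of 8.29% lower. Several of these genes are fibroblast markers, whose summed signal is given above, and the part of cell make-up in these falls was not tested. No single array moved the counts of falls by more than 1.5 times; the single matricellular rise became 2 without replicate 1 or replicate 3 of the double line. Col1a1, a chain of type I collagen, read 17070, 14180 and 22320 on the H-RasV12 arrays and 4299, 1921 and 177.9 on the double-line arrays. The groups were far apart, but the double-line arrays themselves spread over a wide range, from the highest on replicate 1 to the lowest on replicate 3 (−3.88 ± 0.73, limma adjusted p = 0.00198). Bgn, the proteoglycan biglycan, and Mgp, matrix Gla protein, had the same order among the double-line arrays, at 3945, 1680 and 228.2 (−3.46 ± 0.65) and 384.1, 207.7 and 13.32 (−4.53 ± 0.63).

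Other matrix genes were more alike among the double-line arrays. Col6a1, a chain of the beaded-filament type VI collagen, fell from 4336, 3968 and 5107 to 695.3, 696.6 and 267.7 (−3.07 ± 0.29, limma adjusted p = 7.27e-06), and Col6a2 fell by 3.05 ± 0.34. Nid2, a linker of basement membranes, fell from 857.9, 245.2 and 517.4 to 1.595, 2.211 and 19.19, all below the added constant (−4.08 ± 0.56). Thbs2, an antiangiogenic thrombospondin, fell from 2776, 1536 and 2679 to 148, 62.88 and 15.51 (−4.78 ± 0.41), and Ogn and Lum, small leucine-rich proteoglycans, fell by 3.81 ± 0.33 and 3.25 ± 0.37. Among the chains that rose was Lama5 of epithelial-type laminins, which went from 48.43, 129 and 169.2 to 692.5, 999 and 904.6 (2.78 ± 0.36, adjusted p = 0.00011). Of 18 proteases and inhibitors, 7 fell and 0 rose (limma; 10 and 0 unadjusted). Several of these inhibit proteolysis: Reck, a membrane-anchored inhibitor of metalloproteases, fell from 780, 639 and 734.5 to 47.81, 28.68 and 74.32 (−3.38 ± 0.35, adjusted p = 1.8e-05), Timp3 fell by 1.43 and Timp2 by 1.36. Proteases were also among the calls, such as Mmp16 (−2.16 ± 0.37) and Adam8 (−1.61 ± 0.39), here without regard to the alternatives. Inhibitors and proteases thus both had lower members.

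Contractile and serum response factor target genes fell in 9 of 25 cases and rose in 1 (limma; 13 and 1 at an unadjusted p under 0.05), median −0.50; with arrays centred on their medians 5 fell. Tagln, the actin-binding protein SM22, read 1315, 737.8 and 982.1 on the H-RasV12 arrays and 142.6, 90.59 and 72.8 on the double-line arrays (−3.05 ± 0.39, limma adjusted p = 8.47e-05). Csrp2, a LIM protein of smooth muscle, fell from 2845, 2216 and 2588 to 580.5, 559.6 and 359.8 (−2.32 ± 0.31). Myl9, a regulatory myosin light chain, fell from 425.8, 237.2 and 348.3 to 84.96, 28.11 and 58.44 (−2.20 ± 0.47), and the kinase that phosphorylates it, Mylk, fell by 1.77. The member that rose was Ankrd1, described above. The Myl9 promoter is shown because it holds a CArG box, the element bound by serum response factor, 161 bases before the start; it lies at chr2:156775214-156775463 on the plus strand of GRCm38.p6, and capitals mark the box.
Myl9: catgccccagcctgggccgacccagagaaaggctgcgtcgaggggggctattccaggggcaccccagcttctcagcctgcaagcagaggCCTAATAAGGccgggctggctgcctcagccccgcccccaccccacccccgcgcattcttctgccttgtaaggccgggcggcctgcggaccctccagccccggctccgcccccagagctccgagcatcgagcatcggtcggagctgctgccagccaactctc
A CArG box was found in 3 of 8 promoters of the list's called genes, in 4.02% of promoters of genes called lower, in 1.18% of those called higher and in 1.49% of those tested, again a description of letters only.

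Of 29 adhesion receptors 2 were called higher and 4 lower (limma; 5 and 7 at an unadjusted p under 0.05); 4 were higher without replicate 1 of the double line. Itgb1, the shared β1 integrin chain, read 8042, 7538 and 11190 against 7361, 8126 and 9620 (−0.08 ± 0.21). Alcam, an immunoglobulin-type adhesion molecule, fell from 310.6, 307.1 and 248.3 to 40.9, 32.87 and 23.91 (−2.49 ± 0.29, limma adjusted p = 4.28e-05), and the desmosomal plakophilin Pkp2 rose from 56.34, 103.4 and 152.3 to 711.4, 1256 and 1738 (3.29 ± 0.51). Gja1, the gap junction protein connexin 43, rose by 1.02.

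Growth factor receptor kinases and TNF receptors fell in 9 of 24 cases and rose in 1 (limma; 13 and 3 at an unadjusted p under 0.05), median −0.87; the rise, that of Tnfrsf9, was joined by another without replicate 1 of the H-RasV12 line. Egfr, the receptor of epidermal growth factor, read 577.6, 474.6 and 283.9 on the H-RasV12 arrays and 105, 94.53 and 47.02 on the double-line arrays (−2.15 ± 0.35, limma adjusted p = 0.000618), and its second probe set gave −2.98. Pdgfrb fell from 349.7, 255.5 and 296.4 to 59.6, 32.18 and 7.062 (−2.64 ± 0.46), whereas its relative Pdgfra did not overlap between the lines yet was not called (−0.34 ± 0.22). Ghr, the growth hormone receptor, fell by 1.76. In the insulin-like growth factor list 1 of 9 rose and 2 fell. Igfbp4, a binding protein that withholds these growth factors from their receptor, fell from 1695, 1712 and 2051 to 327.3, 45.28 and 31.46 (−4.07 ± 0.57, adjusted p = 0.000202), and Htra1, a secreted protease that cleaves such binding proteins, rose by 1.71.

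Calls among bone morphogenetic protein and Wnt pathway genes were falls. In the TGF-β and BMP list 9 of 28 fell and 0 rose (limma; 10 and 0 at an unadjusted p under 0.05), a count of 5 without replicate 1 of the H-RasV12 line or replicate 2 of the double line. The ligand Bmp4 fell from 295.7, 234.6 and 292.6 to 27.74, 31.83 and 21.91 (−2.57 ± 0.44, limma adjusted p = 0.00101), although its other probe set, at −0.88, was not called. Id3, a target of BMP signalling, fell from 3490, 2262 and 2540 to 990.3, 696.8 and 962.6 (−1.61 ± 0.31), and follistatin, Fst, an antagonist of activin, fell by 2.33 ± 0.41. Of 18 Wnt pathway genes 7 fell and 0 rose (limma; 9 and 0 unadjusted). The secreted modulator Sfrp2 had the largest fall, from 5768, 2231 and 2685 to 98.18, 186.8 and 128.3 (−4.39 ± 0.41, adjusted p = 6.44e-06). Receptors fell too: Fzd1 by 2.74 ± 0.39, Ror2 by 2.59 ± 0.34 and Fzd2 by 1.55. No array of one line reached the range of the other for any of these 4.

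Imprinted genes had the lowest median of the 36 pathway lists, −1.12, with 9 of 17 lower and 0 higher (limma; 11 and 1 at an unadjusted p under 0.05); leaving out replicate 1 or 3 of the GFP line, or replicate 1 of the H-RasV12 line, gave 1 higher. Dlk1, a Notch-like membrane protein from the same cluster as Meg3 but expressed from the other parental allele, fell from 3542, 2083 and 3283 to 279.8, 281.7 and 192.1 (−3.43 ± 0.35, limma adjusted p = 1.46e-05). Ndn, necdin, fell from 774.9, 215.7 and 415.5 to 4.076, 20.51 and 4.138 (−3.78 ± 0.51), and Mest fell from 1330, 310.3 and 364.5 to 17.18, 29.43 and 28.26 (−3.55 ± 0.61). Sgce and Plagl1 fell by 2.53 and 2.57. On the H-RasV12 arrays Meg3, Ndn, Mest, Sgce and Plagl1 were all highest on replicate 1, and no double-line array reached the range of the H-RasV12 line.

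Transcription factors of mesenchymal and positional identity fell in 11 of 30 cases and rose in 0 (limma; 14 and 0 at an unadjusted p under 0.05). Prrx2, a homeobox factor of mesenchyme, read 6103, 4671 and 4625 on the H-RasV12 arrays and 523.6, 313.1 and 311.1 on the double-line arrays (−3.70 ± 0.23, limma adjusted p = 2.62e-07). Snai2, a repressor of epithelial genes, fell from 5152, 3846 and 5567 to 1136, 942.1 and 949.8 (−2.23 ± 0.23, adjusted p = 1.59e-05). Hoxa5, a patterning gene, fell from 445, 409.8 and 491.4 to 160, 175.5 and 143.3 (−1.37 ± 0.22), and Hoxb9 and the Hox cofactor Pbx3 fell by 1.93 and 2.09. The epithelial keratin Krt19 rose from 59.37, 91.93 and 119.3 to 1185, 1014 and 1427 (3.47 ± 0.31), while Cdh1, E-cadherin, overlapped between the lines at 418.6, 631.2 and 526.5 against 411.2, 793.1 and 580.2 (0.14).

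Several large programmes held few calls. Of 24 cytosolic ribosomal protein genes none was called (limma; 0 higher and 1 lower at an unadjusted p under 0.05), Rpl41 reading 20100, 19460 and 34850 against 20380, 26520 and 24590 (−0.01 ± 0.30). Among 34 proteasome subunits only Psmd8 rose (0.92 ± 0.19). DNA replication genes gave 1 higher and 1 lower of 41, mostly 0 when single arrays were left out, and 3 of 38 mitotic genes fell with 0 higher (limma; 8 and 0 at an unadjusted p under 0.05), 6 without replicate 3 of the double line. Racgap1, which organises the central spindle, fell by 0.90. Of the 38 mitotic genes 31 had a negative change. For the difference of the KSR1 responses treated below, 5 of them were more negative with H-RasV12 and 0 more positive, against 3.71% and 4.58% of all genes. The p53 list gave 2 higher and 2 lower of 17 and the D-type cyclin list 1 higher of 6, the rises being lost in part or whole when single arrays were left out. Sesn1, a stress-induced inhibitor of mTORC1, fell from 1257, 772.5 and 805.6 to 267.6, 419.5 and 278.9 (−1.48 ± 0.23, limma adjusted p = 0.000423).

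In the interferon list 6 of 24 fell and 1 rose (limma; 11 and 3 at an unadjusted p under 0.05), or 3 without replicate 1 of the H-RasV12 line and 2 without replicate 3 of the double line, with 3 higher without GFP replicate 1 and 2 without replicate 1 of the double line. Iigp1, an interferon-induced GTPase, fell from 847.1, 257.3 and 405 to 13.48, 83.97 and 44.78 (−2.87 ± 0.60). Unfolded protein and ATF4 response genes gave 3 higher and 4 lower of 36, falling to 1 higher without replicate 1 of the H-RasV12 line or replicate 3 of the double line and to 2 lower without replicate 3 of the H-RasV12 line. Atf5, a factor of the ATF4 response, fell from 3010, 3633 and 4144 to 1567, 982.4 and 567.9 (−1.87 ± 0.28, limma adjusted p = 0.000377), and Hspa5, the chaperone BiP, overlapped (0.26 ± 0.19). Antioxidant genes gave 5 higher and 4 lower of 38; the 4 became 1 without replicate 1 of the H-RasV12 line or replicate 2 of the double line, 2 without its replicate 3 and 7 without its replicate 1. Sod2, the mitochondrial superoxide dismutase, rose from 252.4, 287 and 535.6 to 842.2, 1029 and 1309 (1.56 ± 0.26). In the iron list of 7, 2 rose, among them the ferroxidase Cp, from 291.5, 199.7 and 235.9 to 771, 2096 and 1271 (2.30 ± 0.42).

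**Figure D4:**
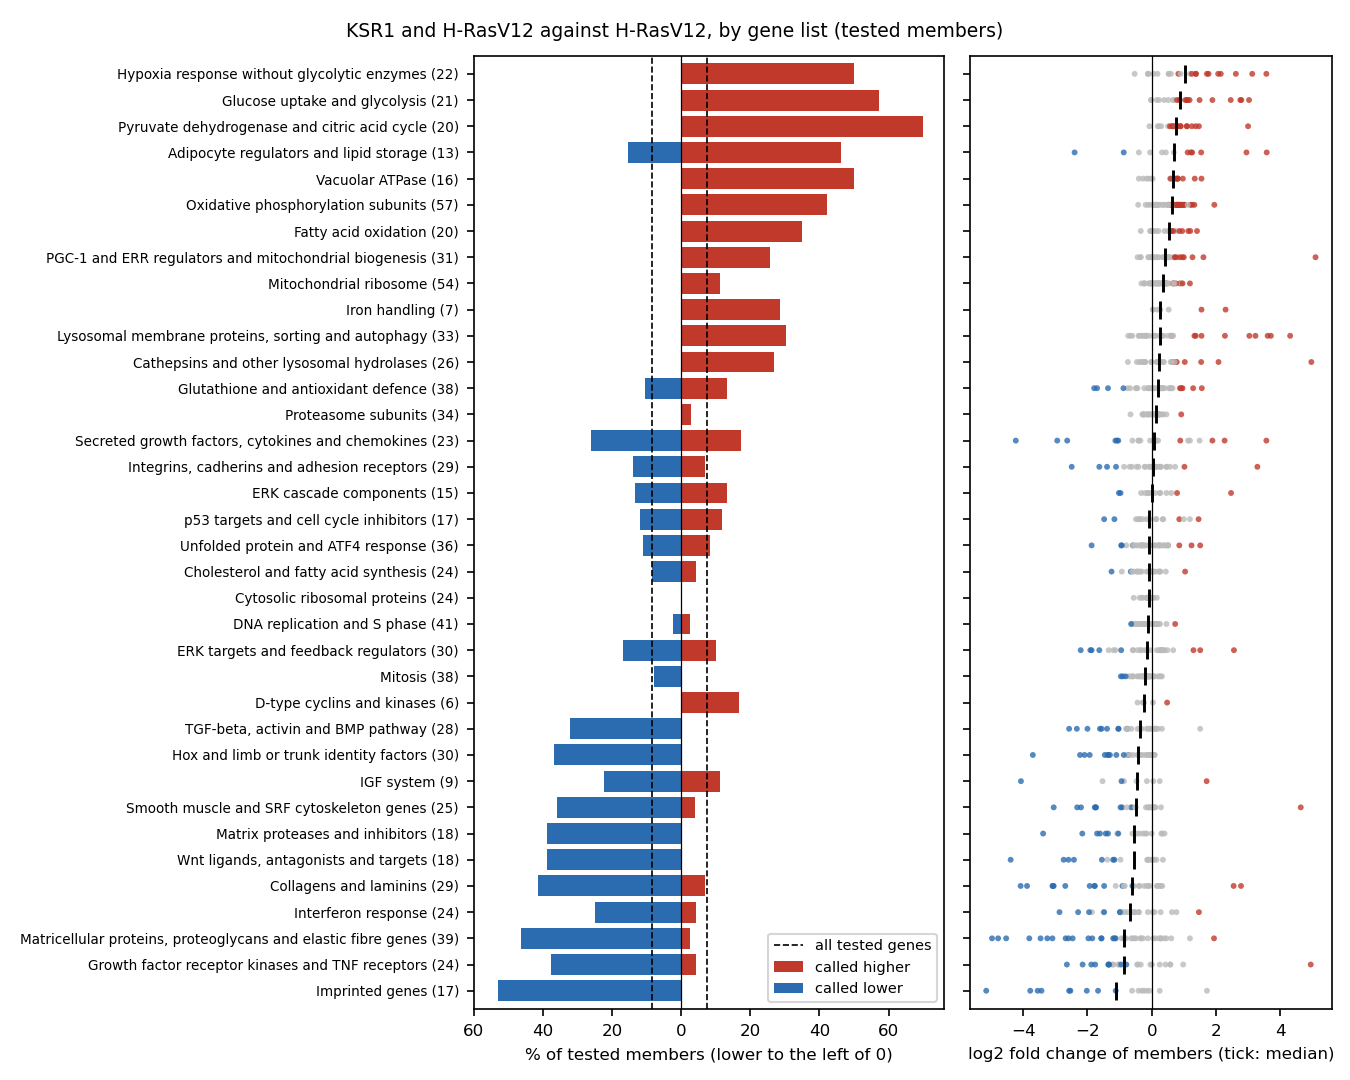
Share of tested members called higher or lower in each of 36 gene lists (left) and the log2 change of every member with the list's median (right), for the double line against the H-RasV12 line. Dashed lines are the shares over all tested genes, 7.62% higher and 8.29% lower. Mitochondrial, glycolytic, hypoxia and lysosomal lists lie above the dashed line in the higher direction, and matrix, imprinted, Wnt and receptor lists in the lower direction.

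The response was set against the response to KSR1 in the line without Ras, a comparison that shares no array with it. The first Ksr1 probe set read 933.4, 1605 and 207.3 with KSR1 alone, against 301.2, 261.9 and 140.8 in the double line. Its rise was 3.22 ± 0.62 without H-RasV12 and 2.47 ± 0.62 with it, a difference not called (limma adjusted p = 0.71). Unlike amounts of KSR1 therefore cannot be told apart from an effect of H-RasV12 in the differences below. In the line without Ras 813 of the 6891 probe sets were called (11.8%), 343 higher (4.98%) and 470 lower (6.82%). Of the 490 probe sets that rose with H-RasV12, 96 also rose without it, 19.6% of the former and 28% of the 343, and of the 532 that fell 185 also fell, 34.8% of the former and 39.4% of the 470. Opposite calls were not above the shares over all tested probe sets. Of the 490 that rose with H-RasV12, 20 fell without it (4.08%), against 6.82% of all. Of the 532 that fell with it, 26 rose without it (4.89%), against 4.98% of all. Across the tested probe sets both changes correlated at 0.41, a description over probe sets that are not independent. The difference of the responses itself was called for 533 probe sets (7.73%), 287 more positive with H-RasV12 (4.16%) and 246 more negative (3.57%), which became 355 and 161 with arrays centred on the median, a scaling that shifted the median difference by 0.18. It was 339 without replicate 2 of the H-RasV12 line and 340 without replicate 2 of the KSR1 line. Of the 1022 probe sets changed by KSR1 in the H-RasV12 line, 332 were among the 533.

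**Figure D5:**
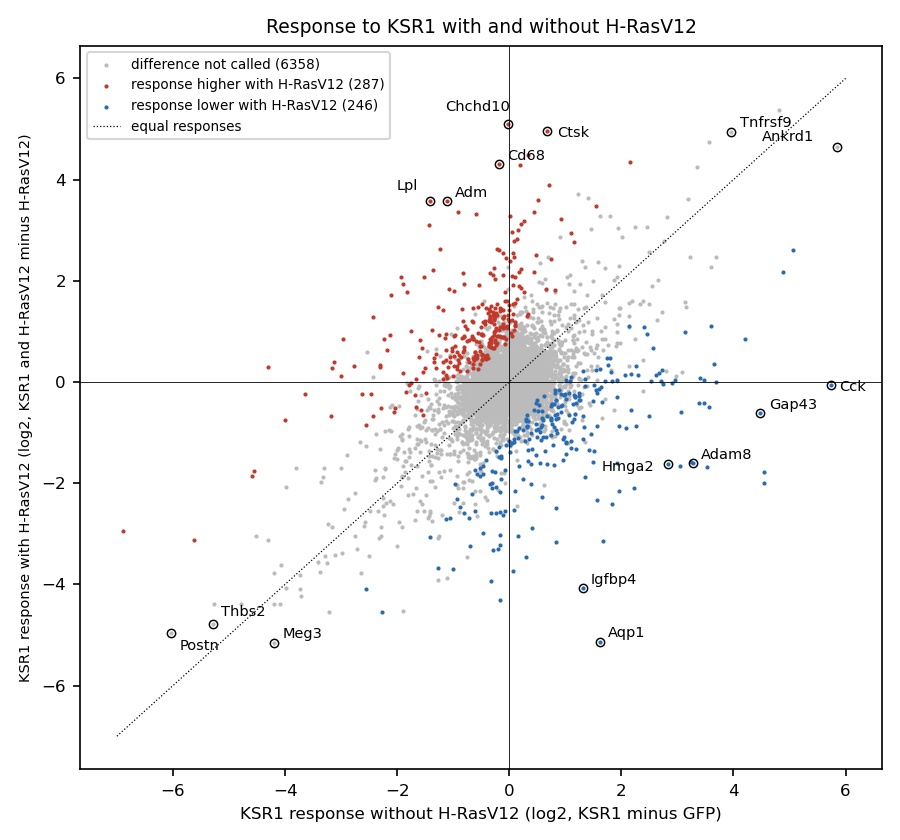
Log2 change with KSR1 in the line without Ras (horizontal) against that in the H-RasV12 line (vertical) for every tested probe set. Coloured points are the 287 and 246 probe sets whose responses differed by the limma test. Points on the diagonal had equal fitted changes, and Chchd10, Cd68 and Ctsk lie near 0 on the horizontal axis.

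Several metabolic lists had called differences in 1 direction. Of the 57 respiratory chain genes 14 responded more positively with H-RasV12 and 0 more negatively, of 20 citric acid cycle genes 7 and 0, of 20 fatty acid oxidation genes 9 and 0, of 21 glycolytic genes 6 and 0, of 22 hypoxia genes 10 and 0 and of 16 vacuolar ATPase genes 6 and 0, against backgrounds of 4.58% and 3.71% of genes. Others were mixed, with 3 and 1 of 31 mitochondrial biogenesis genes, 1 and 1 of 24 cholesterol and fatty acid synthesis genes and 3 and 1 of 13 lipid storage genes. Of 30 ERK targets and feedback regulators 0 responded more positively with H-RasV12 and 6 more negatively. Secreted signalling genes gave 3 and 8 of 23, and adhesion receptors 1 and 7 of 29. Without H-RasV12, 0 respiratory chain genes were called higher with KSR1 and 6 lower, and 0 and 4 fatty acid oxidation genes. By contrast, 3 glycolytic genes were higher and 0 lower, and 7 ERK targets were higher and 0 lower. Secreted signalling genes gave 10 higher and 2 lower there, and adhesion receptors 8 and 1. In that comparison 5.05% of all genes were called higher and 7.21% lower. Chchd10 read 161.5, 254.6 and 277.2 on the GFP arrays and 328, 98.01 and 318.8 on the KSR1 arrays, which overlap, so its response differed by 5.13 ± 0.50 (limma adjusted p = 4.01e-05). Cd68 and Ctsk also differed, with differences of 4.50 ± 0.31 (adjusted p = 1.18e-06) and 4.30 ± 0.71 (adjusted p = 0.00192). Lpl read 81.96, 126.5 and 60.61 with GFP and 19.11, 11.91 and 24.18 with KSR1, giving a difference of 4.99 ± 0.76, and Adm, at 53.27, 167.1 and 185.2 against 93.03, 33.29 and 23.05, one of 4.68 ± 0.69. The lysosomal glycoprotein Creg1 rose in the H-RasV12 line from 112.5, 15 and 63.63 to 464.1, 684.3 and 814.4, and its responses differed by 4.54 ± 0.62. Vamp5, a membrane fusion protein, rose there from 28.66, 36.26 and 31.93 to 478.3, 765.9 and 435.6, with a difference of 4.27 ± 0.60.

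A few genes responded in opposite directions. Aqp1 read 933.3, 959.5 and 428.8 with GFP and 2386, 2479 and 1976 with KSR1, a rise, and fell in the H-RasV12 line as given above, so the responses differed by −6.74 ± 0.46 (limma adjusted p = 1.18e-06). Uchl1, a neuronal deubiquitinase, rose by 3.05 without H-RasV12 and fell from 152, 131 and 168.7 to 40.85, 35.56 and 20.05 with it (−1.67; difference −4.72 ± 0.37). Adam8, a membrane metalloprotease, rose by 3.27 without it and read 91.97, 324.1 and 176.2 against 33.81, 34.63 and 61.97 with it (−1.61; difference −4.88 ± 0.55), a fall whose call was lost without replicate 2 of the H-RasV12 line (adjusted p = 0.0682). Igfbp4 and the retinoid-binding protein Crabp1 also had strongly negative differences, −5.38 ± 0.81 and −4.84 ± 1.08. For Igfbp4 the change without H-RasV12 was not called (1.31 ± 0.57, limma adjusted p = 0.169), so an opposite response is not shown. Bhlhe40 and Acaa2, called higher in the H-RasV12 line, were called lower without it, at −1.52 and −0.84.

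For another set the response lay in the line without Ras. Gap43, a growth cone protein, reached 2986, 2475 and 3166 on the KSR1 arrays but only 79.58, 64.1 and 40.61 on the double-line arrays, where it was not called against 117.1, 96.53 and 98.81 (−0.61, limma adjusted p = 0.0911; difference −5.09 ± 0.32). The peptide hormone Cck read 3376, 893 and 1813 with KSR1 alone and was near 0 in both H-RasV12 lines, with means of 6.77 and 5.7 (difference −5.79 ± 0.66), and Ngef, a guanine nucleotide exchange factor, rose by 3.24 without H-RasV12 and was not called with it (−1.59; difference −4.83 ± 0.90). Ccn5, a matricellular protein, fell with KSR1 from 1289, 1736 and 2142 to 68.7, 76.38 and 46.83; in the H-RasV12 line it was already low, at 300.7, 187.2 and 174.1 against 349.4, 272.3 and 200.1 (0.29), and the difference was 4.60 ± 0.39.

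Part of the matrix and imprinted response was called in both settings. Without H-RasV12, 14 of the 29 collagen and laminin genes, 15 of the 39 matricellular genes and 8 of the 17 imprinted genes were lower with KSR1. Of the 12 collagen and laminin genes that fell with H-RasV12, 11 also fell without it, of the 18 matricellular genes 9, and of the 9 imprinted genes 5. Col1a1 and Lum, which fell in the H-RasV12 line, were not called without H-RasV12 (limma adjusted p = 0.392 and 0.272). Postn changed by −6.03, Thbs2 by −5.29 and Meg3 by −4.20 in that line, and for none of the 3 was the difference between the settings called. Tnfrsf9, Ankrd1 and Ampd3 rose there by 3.96, 5.84 and 3.57 and Retreg1 by 3.19, likewise with no call for the difference. Cxcl12 fell in both settings but more without H-RasV12, by 6.89, and Prrx2 fell in both but more with it. A difference that was not called does not show that the responses were equal.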

How the data were processed

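Total RNA of 12 samples, 3 from each of 4 fibroblast lines, was measured on Affymetrix mouse expression arrays. The deposited values are MAS5 signal intensities per probe set, made by the authors on a linear scale, per the submitters' processing notes; the version of MAS5 is not given in the sources used here. From the values, the trimmed mean, without the top and bottom 2% of probe sets, was 500.3 on every array. Such scaling removes differences in total signal between lines.

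Of 12488 probe sets, 66 controls were left out. The 6891 above a signal of 182 (the median) on at least 3 arrays were analysed as log2(signal + 23) in R 4.3.3 with limma 3.58.1 (lmFit, eBayes with intensity trend, 4 group means, 8 residual degrees of freedom), two-sided, with Benjamini-Hochberg adjustment over all 6891 and a call at an adjusted p under 0.05. The script was tested on simulated data. The difference of the KSR1 responses was a contrast in the same fit. Symbols came from the platform annotation: 10833 probe sets had 1 symbol, 396 several and 1193 none, and 10817 were updated by gene ID. A gene was represented by its probe set with the highest mean; probe sets whose probes are shared with other transcripts may mix signals. Promoters were from RefSeq (GRCm38.p6). Tables and plots used Python 3.11.15, pandas 2.3.3 and matplotlib 3.10.9.

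Genes named in the text were taken from a set made by rule: Ksr1, Ppargc1a and Esrra; the 15 highest and 15 lowest changes among called genes without overlap; from each list at most 6 called members, by size of change, and the 2 with the highest signal; and the 8 highest and 8 lowest called differences between responses. Vim, Thy1, Ptprc, Lyz2, Epcam, Cdh1, Tyr, Tyrp1 and Acp5 were named as markers, and Pparg, Fabp4 and Adipoq as fat cell genes below the filter. Pgk1, Klf4, Fosl1, Cebpa, Map2, Cd14 and Laptm5 were added after their values were seen. The comparison, its members and the lists were chosen with earlier results of these data known. Alternatives changed the pseudocount, filter, scaling, arrays, trend, weights and replicate block.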

Additional observations from a re-analysis of the deposited data

Results flagged for a closer look

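The response to KSR1 differed between the lines with and without H-RasV12 for 533 probe sets by the limma test of the difference itself, and the 8 most positive and 8 most negative such genes are listed here with that difference on the log2 scale. More positive with H-RasV12 were Chchd10 (5.13), Lpl (4.99), Adm (4.68), Ccn5 (4.60), Creg1 (4.54), Cd68 (4.50), Ctsk (4.30) and Vamp5 (4.27). For these except Ccn5 the rise lay in the H-RasV12 line. Lpl and Adm also changed by −1.41 and −1.11 with KSR1 in the line without Ras, which adds to their differences, though neither was called there (limma adjusted p = 0.115 and 0.173). For Ccn5 it was the fall with KSR1 in the line without Ras that had no counterpart. More negative were Aqp1 (−6.74), Cck (−5.79), Igfbp4 (−5.38), Gap43 (−5.09), Adam8 (−4.88), Crabp1 (−4.84), Ngef (−4.83) and Uchl1 (−4.72). All 16 kept their call in every alternative that tested them. Each group had 3 arrays, so no single array was examined as an outlier by a formal test.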

How the results depend on the processing

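The count of 1022 called probe sets in the H-RasV12 line was within 1.5 times of itself in all alternatives: between 874 (only the 6 arrays compared) and 1164 (array weights) with other pseudocounts, filters, scalings, trends and weights, 1013 with replicates 2 and 3 alone, and from 721 (without H-RasV12 replicate 1) to 1129 (without replicate 1 of the double line) when 1 array was left out. The 533 differences between the KSR1 responses became 801 with array weights and ranged from 339 (without H-RasV12 replicate 2) to 680 (without replicate 1 of the double line), with 340 without KSR1 replicate 2; the cause was not tested. Their split of 287 more positive and 246 more negative became 355 and 161 when arrays were centred on the median. With the replicate number as a block the counts were 1267 and 741. The labels state nothing that same-numbered arrays share, although the 18S and 3′ beta-actin control signals were lowest on replicate 1 in every line. Deviations of same-numbered arrays correlated at 0.0252 to 0.381 for the H-RasV12 and double lines and at −0.0205 to 0.187 for GFP and H-RasV12. The range was 0.208 to 0.511 for GFP and KSR1 and 0.162 to 0.432 for KSR1 and the double line. It was 0.121 to 0.363 for H-RasV12 and KSR1 and 0.1 to 0.284 for GFP and the double line. The numbers may therefore pair arrays across lines, with the highest values for GFP and KSR1. Whether they pair the H-RasV12 and double-line arrays is not settled by these values, and the main comparison used no pairing. The 813 calls of KSR1 against GFP became 1047 with that block, an alternative chosen after seeing the data. No named gene reversed. Of 202 named genes called in the H-RasV12 line, 145 kept their call in all 21 to 23 alternatives that tested them and 57 lost it in at least 1; of 46 not called, 11 were called in some. Of 72 counts for lists, 36 stayed within 1.5 times throughout. Signals under the constant of 23 give no reliable fold.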
